A study of Mus musculus with 2 samples.

Results

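Hair shaft keratinocytes were examined in single-cell RNA profiles of back-skin epidermis from 2-day-old mice, as the cells in which the hair keratin Krt35 was high. A cell was selected when at least 5 of every 10000 of its UMIs (unique molecular identifiers, each standing for 1 captured mRNA molecule) came from Krt35 and when the keratins Krt25, Krt27, Krt28, Krt71 and Krt73 of the inner root sheath together gave fewer UMIs than Krt35. This held for 217 of 8206 cells, 145 of 4844 in the control library and 72 of 3362 in the Gli2EKO library. Gli2EKO mice carried floxed Gli2 alleles and the K14Cre transgene, in which the keratin 14 promoter drives Cre recombinase in keratinocytes and their descendants, and controls were floxed littermates without Cre, labelled WT, on the same C57Bl/6N background. Epidermal whole mounts were freed from the dermis with collagenase and DNase, dissociated with trypsin and profiled with a 10x 3′ polyA assay. There was 1 library per genotype, and the number of mice behind each library is not given in the sources used here. No test between genotypes was therefore possible, and every interval below is an exact 95% interval that covers counting error only.

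The hair shaft is built by keratinocytes that leave the proliferating matrix of the hair bulb, move upwards and differentiate into medulla, cortex and cuticle, while neighbouring matrix cells give rise to the inner root sheath that moulds the shaft. Shaft cells make hair keratins in a fixed order, type I keratins such as Krt35 and Krt31 pairing with type II keratins such as Krt85, and later fill the keratin network with cystine-rich keratin-associated proteins. Wnt signalling through Lef1 and the homeobox factor Hoxc13 are the best known regulators of hair keratin genes, and loss of Hoxc13, Foxn1 or Dsg4 function gives fragile or missing hair.

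The 250 bases before the start of 3 hair keratin genes are shown because the cells were chosen by the first of them and the others are its type II partner, Krt85, and a later type I keratin, Krt31. They were read from the GRCm39 reference, 5′ to 3′ on the minus strand on which all 3 genes lie, at chr11:99987068-99987317 for Krt35, chr15:101422055-101422304 for Krt85 and chr11:99941378-99941627 for Krt31. None of these stretches overlaps an annotated exon. Capitals mark words of the kind bound by Hoxc13 or by Lef1.
Krt35: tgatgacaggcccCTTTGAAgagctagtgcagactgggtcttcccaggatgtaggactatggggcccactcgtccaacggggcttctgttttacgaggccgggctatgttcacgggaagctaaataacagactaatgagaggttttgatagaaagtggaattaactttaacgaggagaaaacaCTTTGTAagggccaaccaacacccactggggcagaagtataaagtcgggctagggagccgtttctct
Krt85: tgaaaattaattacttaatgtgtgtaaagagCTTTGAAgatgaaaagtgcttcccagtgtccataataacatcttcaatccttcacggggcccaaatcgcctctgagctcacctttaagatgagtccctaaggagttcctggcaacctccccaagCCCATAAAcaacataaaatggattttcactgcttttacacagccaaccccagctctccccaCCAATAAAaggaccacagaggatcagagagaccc
Krt31: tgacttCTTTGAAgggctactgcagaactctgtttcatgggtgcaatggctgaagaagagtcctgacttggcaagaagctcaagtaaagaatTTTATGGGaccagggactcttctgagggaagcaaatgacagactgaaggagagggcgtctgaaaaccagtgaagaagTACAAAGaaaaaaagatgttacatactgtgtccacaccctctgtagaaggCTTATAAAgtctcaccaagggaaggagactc
The Hoxc13 words searched on both strands were TTAATNAA, TTAATNAG, TTAATNGA, TTAATNGG, TTTATNAA, TTTATNAG, TTTATNGA and TTTATNGG, and the Lef1 words were CTTTG followed by any pair of the letters A and T. The Krt35 stretch held 2 Lef1 words and 0 Hoxc13 words, the Krt85 stretch 1 Lef1 word and 2 Hoxc13 words, and the Krt31 stretch 2 of each. A TATAAA box started 30 bases before the Krt35 gene and 29 bases before the Krt31 gene, where it lies inside a Hoxc13 word. Over all 21757 protein-coding promoters of this length, 18.2% held a Hoxc13 word, 16.2% a Lef1 word and 12.5% TATAAA on either strand. A match describes letters only and does not show binding.

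The control matrix held 71021773 UMIs over 6326 barcodes and the Gli2EKO matrix 48866478 over 4296, with 0 barcodes in common. Cells with more than 1000 and fewer than 8000 detected genes and under 15% mitochondrial UMIs were kept, and their median was 12275.5 UMIs in control and 12169 in Gli2EKO. Selected hair shaft cells had a median of 11942 UMIs and 3778 genes in control and 9399.5 UMIs and 3334.5 genes in Gli2EKO. Levels are given as UMIs per 10000 in single cells and as CPM, UMIs per 1000000 summed over the cells of a library (1983748 UMIs in the selected control cells, 754439 in Gli2EKO). Gli2 itself stood at 57.5 CPM in selected control cells and 46.4 CPM in Gli2EKO cells. These counts come from the 3′ end of the transcript and the floxed exons are not stated in the sources used here, so they do not check the genotype labels.

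Hair shaft cells made up 2.99% (interval 2.53 to 3.51) of kept control cells and 2.14% (1.68 to 2.69) of kept Gli2EKO cells, a ratio of 0.715 (0.532 to 0.955). The ratio lay between 0.634 and 0.828 over 9 other ways of selecting or counting the cells. The highest left out the cells with the highest doublet scores, 24 of the control and 2 of the Gli2EKO shaft cells. No interval was computed for these other ratios, so whether they too lie beyond counting error was not examined. Krt35 itself, which chose the cells, ran from 5.08 to 160 per 10000 in control with a median of 21.0, and from 5.28 to 179 in Gli2EKO with a median of 22.1. At least 1 Krt35 UMI was found in 604 control cells and 216 Gli2EKO cells, and the inner root sheath keratins removed 16 of 161 and 13 of 85 cells that were past the Krt35 limit. Cells just outside that limit (Krt35 from 3 to under 5 per 10000) numbered 32 and 11, with Krt85 at 251 and 282 CPM and Hoxc13 at 159 and 227 CPM. Cells just inside it (5 to under 7) numbered 18 and 7, with Krt85 at 383 and 313 CPM and Hoxc13 at 290 and 388 CPM.

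Besides Krt35, which every selected cell holds by the rule, 4 genes served as markers of the hair shaft. They were chosen with earlier results of these data known, so their levels describe the cells and are not independent support. Hoxc13 (chr15:102829538-102837249), the homeobox factor of shaft differentiation, stood at 390 CPM in control and 493 CPM in Gli2EKO shaft cells, against 35.1 and 22.9 CPM in all other kept cells. Dsg4, the desmosomal cadherin of the hair cortex, stood at 188 and 266 CPM, against 2.57 and 1.61 CPM elsewhere. S100a3, a calcium-binding protein of the hair cuticle, stood at 477 CPM in control and 5201.2 CPM in Gli2EKO, against 41.3 and 28.0 CPM elsewhere, but 1 Gli2EKO cell held 87.3% of the Gli2EKO UMIs. Selenbp1 (chr3:94840334-94852203), a selenium-binding protein, stood at 371 CPM in control and 114 CPM in Gli2EKO, against 5.17 and 5.83 CPM elsewhere. All 4 markers that the selection did not use thus had a higher CPM than in the other cells of both libraries.

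**Figure D1:**
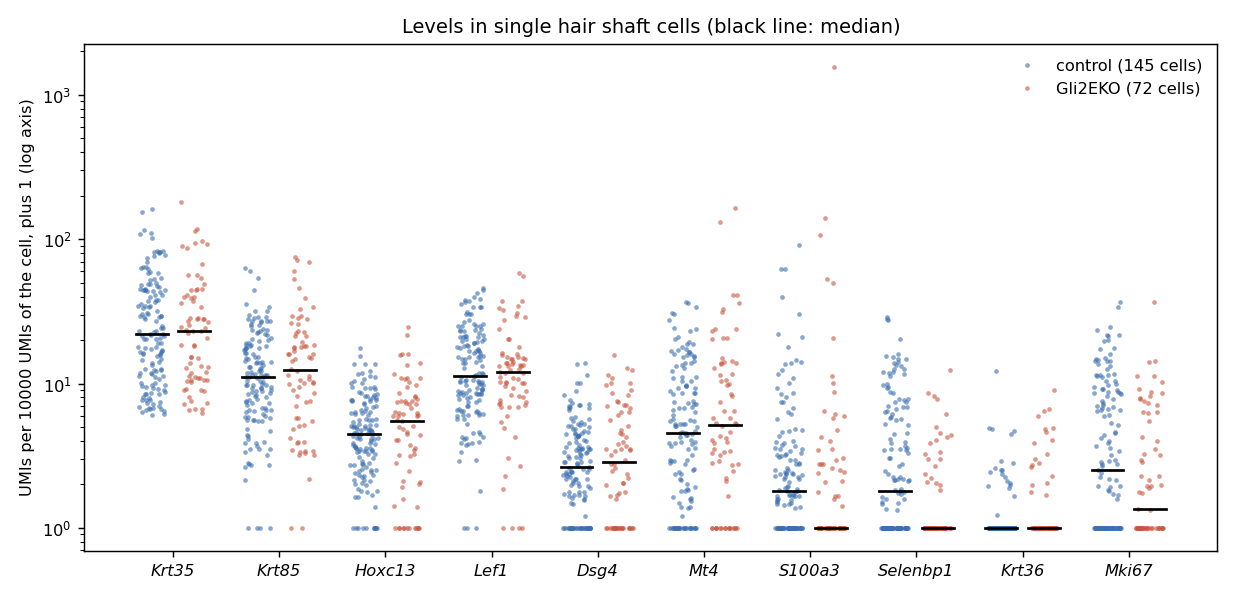
Level of 10 genes in each selected hair shaft cell, as UMIs per 10000 plus 1 on a log axis, with 1 point per cell and a line at the median, for 145 control and 72 Gli2EKO cells. Krt85 has a median of 10.2 in control and 11.4 in Gli2EKO, Selenbp1 a median of 0.81 in control against 0 in Gli2EKO, and 1 Gli2EKO cell stands far above the rest in S100a3 at 1556.

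Hair keratins other than Krt35 were led by Krt85 (chr15:101413801-101422054), which carried the symbol Gm49425 in the files and was found by its identifier. Krt85 was detected in 141 of 145 control cells and 70 of 72 Gli2EKO cells, at 1280.4 and 1625 CPM, against 17.4 and 11.9 CPM in the other kept cells. Across cells, Krt85 followed Krt35 with a Spearman rho of 0.77 in control (n = 145) and 0.73 in Gli2EKO (n = 72), a description of cells that share a library and that were chosen by Krt35. Krt36, a type I hair keratin, was found in 20 control and 19 Gli2EKO cells, at 33.8 and 79.5 CPM (log2 ratio of Gli2EKO over control 1.24, interval 0.71 to 1.76). Krt31 came from 11 control and 6 Gli2EKO cells, at 55.5 and 132.6 CPM, and its log2 ratio moved from 1.26 to 0.50 with the highest cell of each library left out. Krt33a was low in both, at 15.1 and 18.6 CPM.

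Of 16 hair keratin genes, 15 had a UMI in the selected cells and 9 reached the 20 UMIs over both libraries that were required for a fold. Among all 9520 genes with that many, 122 (1.28%) were at least 4-fold higher in hair shaft cells than in all other kept cells in both libraries, and 7 of the 9 hair keratins, the selecting gene Krt35 included, were among them. In the comparison of libraries, 248 of the 9520 genes (2.61%) were at least 2-fold higher in Gli2EKO and 319 (3.35%) at least 2-fold lower, with 0.5 UMIs added and a median log2 ratio over all genes of 0.03. Of the 9 hair keratins, 6 were at least 2-fold higher in Gli2EKO and 0 at least 2-fold lower, and their median log2 ratio was 1.26, or 0.50 with the highest cell of each gene left out per library. Krt82 and Krt32 reached the 20 UMIs only through the Gli2EKO cell with the most S100a3. That cell held all 142 Krt82 UMIs and 232 of the 241 Gli2EKO UMIs of Krt32, against 0 and 8 UMIs in control. With the highest cells left out, the ratio of Krt82 came only from the 0.5 UMIs added. These counts and medians thus rest partly on 1 cell and are no support for a difference. Summed over the list, hair keratins stood at 4650.3 CPM in control and 5779.1 CPM in Gli2EKO. Single cells ranged from 5.39 to 201 per 10000 in control and from 6.18 to 251 in Gli2EKO. Krt83, Krt87 and other type II hair keratins are close copies of each other, so reads may be split between them.

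Later shaft products came from a few cells. At least 3 UMIs of Krt31, Krt33a, Krt33b, Krt34, Krt36, Krt81, Krt83, Krt86 and Krt87 together were found in 10 control cells (6.90%) and 10 Gli2EKO cells (13.9%). Mki67, a marker of proliferation, had 0 UMIs in those control cells and stood at 29.8 CPM in those Gli2EKO cells, against 563 and 385 CPM in the other shaft cells. Of 58 genes for keratin-associated proteins, 23 had a UMI and 6 could be counted, 4 of them at least 2-fold higher in Gli2EKO. Krtap8-1, a glycine- and tyrosine-rich member, was found in 26 control and 11 Gli2EKO cells, at 97.3 and 435 CPM (log2 ratio 2.16, 1.90 to 2.42). Krtap11-1 stood at 31.8 and 122 CPM and Krtap7-1 at 45.9 and 78.2 CPM. Leaving out the highest cell of each library lowered the median of the 6 genes from 2.05 to 0.53.

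The 1 Gli2EKO cell that held most S100a3 set several of these ratios. It had 22012 UMIs and 3272 genes, and 3425 of its UMIs (15.6%) were S100a3. It also held 526 UMIs of Psors1c2, 407 of Vsig8, 358 of the metallothionein Mt4, 232 of the cuticle keratin Krt32, 158 of Ly6g6d, 142 of the cuticle keratin Krt82 and 91 of Krtap17-1. Its Krt35 level, 9.54 per 10000, was below the median, and no UMI of Lef1, Selenbp1 or Krt14 was found in it. Without this cell the log2 ratio of S100a3 went from 3.45 to 0.51, that of Mt4 from 0.97 to 0.43 and that of Krt32 from 6.22 to 1.60. The control cell with the most S100a3 had 189 S100a3 UMIs of 21069, or 0.897%.

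**Figure D2:**
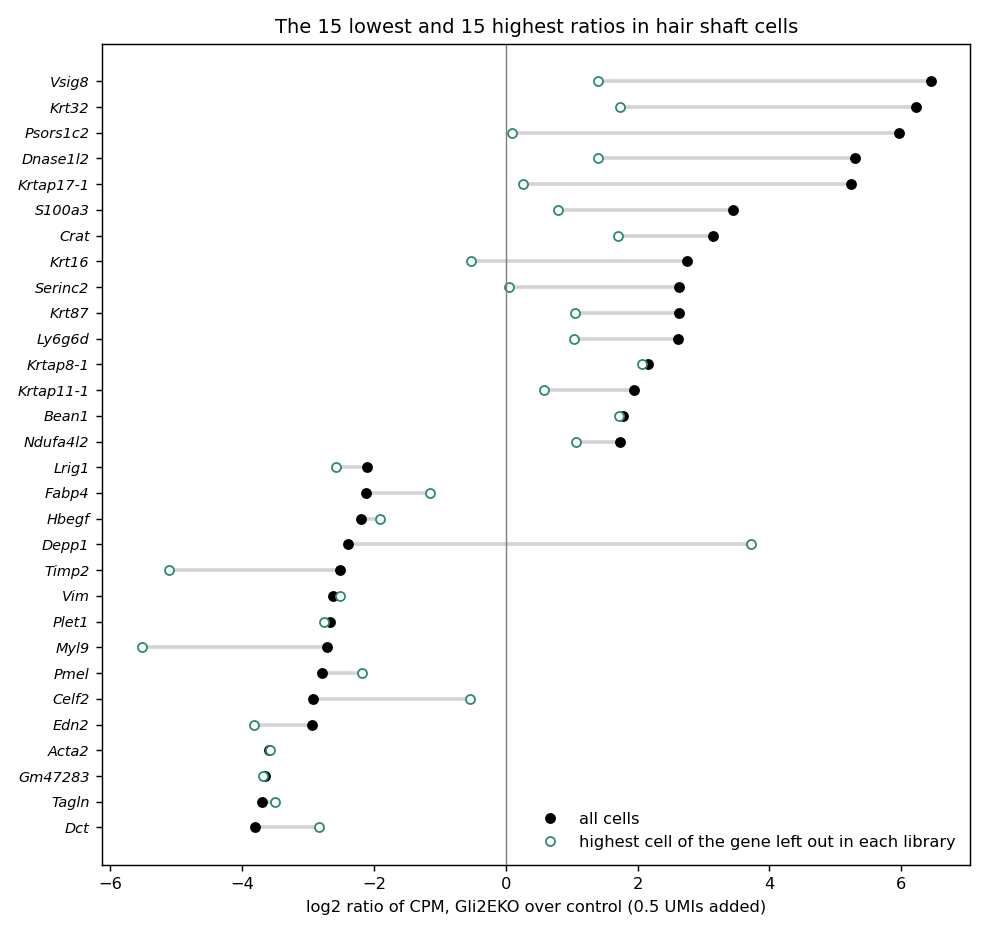
Log2 ratio of Gli2EKO over control in hair shaft cells for the genes with the 15 highest and the 15 lowest ratios among those with at least 50 UMIs, summed over all cells and with the highest cell of each library left out. Vsig8 and Krt32 lead at 6.45 and 6.22 and move to 1.39 and 1.74 without the highest cells, and ratios for which 0 UMIs are left in a library (Timp2, Myl9, Edn2 and Depp1) depend on the 0.5 UMIs added.

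Among 18 genes of shaft structure, chosen as products of cuticle and cortex, 13 could be counted. Of these, 6 were at least 2-fold higher in Gli2EKO and 2 at least 2-fold lower, against 2.61% and 3.35% of all 9520 genes. Their median log2 ratio was 0.97, or 0.47 without that 1 cell. Mt4, a metallothionein of squamous epithelia, stood at 729 CPM in control and 1427.6 CPM in Gli2EKO. Hephl1, a copper-dependent ferroxidase whose loss gives abnormal hair, was found in 17 control and 15 Gli2EKO cells, at 39.3 and 99.4 CPM (log2 ratio 1.34, 0.86 to 1.81), and its highest cell held 19 UMIs in each library. All 145 UMIs of Elovl3, a fatty acid elongase, came from 1 Gli2EKO cell, so it passed the UMI minimum through that cell alone.

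Selenbp1 went the other way and did not rest on single cells. It was detected in 84 of 145 control and 22 of 72 Gli2EKO cells, with 736 and 86 UMIs, and the log2 ratio was −1.70 (−2.04 to −1.38), lying between −2.12 and −1.57 over 12 alternatives. Because Gli2EKO cells were shallower, each cell was also thinned to 5000 UMIs, which left out 13 control and 16 Gli2EKO cells. At equal depth 47.7% (39.0 to 56.6) of control and 23.2% (13.0 to 36.4) of Gli2EKO cells held a Selenbp1 UMI, against 57.9% and 30.6% unthinned. In cells of immune or endothelial genes, which served as background, the thinned shares were 4.95% and 6.25% at median depths of 9995 and 11307 UMIs before thinning. Outside the hair shaft cells the Selenbp1 level was similar in the libraries (5.17 and 5.83 CPM). The close paralogue Selenbp2 had 0 UMIs in the selected cells.

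Thinned shares of the other markers depended on the depth chosen. At 5000 UMIs Hoxc13 was found in 80.3% (72.5 to 86.7) of control and 85.7% (73.8 to 93.6) of Gli2EKO cells, Dsg4 in 58.3% (49.4 to 66.8) and 55.4% (41.5 to 68.7), Krt85 in 93.2% and 92.9%, and S100a3 in 42.4% (33.9 to 51.3) and 32.1% (20.3 to 46.0). In the background cells Hoxc13 was found in 0.990% of control cells and 0 of 64 Gli2EKO cells, Krt85 in 0.990% and 1.56%, S100a3 in 4.95% and 1.56%, and Dsg4 in 0 of 101 and 0 of 64 cells, where the upper bounds of a count of 0 are 3.59% and 5.60%. Unthinned shares in shaft cells were 92.4% and 83.3% for Hoxc13, 76.6% and 69.4% for Dsg4, 64.1% and 47.2% for S100a3, and 97.2% in both for Krt85. The intervals of each of these pairs overlapped at 5000 UMIs. Thinned to 2000 UMIs, Hoxc13 was found in 46.2% (37.9 to 54.7) of control and 62.9% (50.5 to 74.1) of Gli2EKO cells, and Dsg4, in the reverse order to that at 5000 UMIs, in 30.3% (23.0 to 38.5) and 42.9% (31.1 to 55.3). At that depth Selenbp1 was found in 32.4% (24.9 to 40.7) and 14.3% (7.07 to 24.7), with background shares of 2.31% and 1.39%.

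Desmosomal genes, which hold the cells of the shaft together, had a median log2 ratio of 0.21 between the libraries. Of 14 counted, 2 were at least 2-fold higher in Gli2EKO and 1 at least 2-fold lower, against 2.61% and 3.35% of all 9520 genes. The difference from these shares was not tested. Desmoplakin (Dsp) stood at 1116.6 CPM in control and 995 CPM in Gli2EKO, and desmocollin 3 (Dsc3) at 481 and 549 CPM. Dsg3, a desmosomal cadherin of basal and outer root sheath cells, was found in 51 control and 31 Gli2EKO cells, at 42.8 and 101 CPM (log2 ratio 1.23, 0.77 to 1.70). Dsg4 and Dsc2 were the 2 members at least 4-fold above all other kept cells in both libraries, and the log2 ratio of Dsg4 between libraries was 0.51 (0.25 to 0.76).

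Most transcription factors of the shaft lay within 2-fold between the libraries, as did most genes. Of all 9520 genes, 2.61% were at least 2-fold higher and 3.35% at least 2-fold lower in Gli2EKO. Of 23 genes, 19 could be counted, 1 was at least 2-fold higher in Gli2EKO (Grhl3, with 13 and 14 UMIs), 0 were at least 2-fold lower, and the median log2 ratio was 0.08, between −0.15 and 0.12 over 14 alternatives. Lef1, the nuclear partner of β-catenin, stood at 1129.2 CPM in control and 1048.5 CPM in Gli2EKO (log2 ratio −0.11, −0.23 to 0.01), against 152 and 106 CPM elsewhere. Hoxc13 had a log2 ratio of 0.34 (0.16 to 0.52). Msx2, a homeobox factor of the matrix and shaft, stood at 135 and 144 CPM, and Foxn1, the factor missing in nude mice, at 42.8 and 61.0 CPM. Ovol1, a zinc-finger factor of differentiating keratinocytes, stood at 68.1 and 102 CPM. These 5 factors were at least 4-fold above all other kept cells in both libraries. Gata3, a factor of the inner root sheath, was lower in shaft cells, at 38.8 and 19.9 CPM, than elsewhere, at 94.9 and 93.5 CPM.

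Few signalling genes were past 2-fold, as among all 9520 genes (2.61% higher and 3.35% lower in Gli2EKO). Those past it rested on low counts or single cells. In the Wnt list 23 of 28 genes were counted, 1 was at least 2-fold higher in Gli2EKO (Sp5, 8 and 14 UMIs) and 0 at least 2-fold lower, with a median log2 ratio of 0.19. The ligands Wnt10a and Wnt3 stood at 54.4 and 51.4 CPM in control and at 95.4 and 96.8 CPM in Gli2EKO, and the Wnt target Axin2 at 52.4 and 72.9 CPM. In the BMP list 17 of 20 were counted, with a median of 0.17 and 1 gene, Bmp2, at least 2-fold higher. Its log2 ratio of 1.12 became 0.32 without the highest cells. Bmp8a, a BMP ligand, stood at 34.3 and 33.1 CPM, against 1.79 and 1.35 CPM in the other kept cells. In the Notch list 10 of 13 were counted, with a median of 0.26 and 0 genes past 2-fold either way. The receptor Notch1 stood at 339 and 341 CPM and its ligand Jag1 at 327 and 334 CPM, against 95.6 and 90.9 CPM and 73.7 and 59.0 CPM elsewhere.

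Hedgehog genes were listed because Gli2 is the main activator at the end of this pathway. Of 14 genes, 13 were counted, the median log2 ratio was −0.03 (−0.27 to 0.08 over 14 alternatives), and 1 was past 2-fold higher in Gli2EKO, against 2.61% of all 9520 genes. That gene was the ligand Shh, found in 11 control and 6 Gli2EKO cells at 21.7 and 46.4 CPM, and its log2 ratio of 1.10 became −0.45 without the highest cells. Ptch1, receptor and target of the pathway, stood at 113 CPM in control and 83.5 CPM in Gli2EKO (log2 ratio −0.43, −0.86 to −0.03), and in both libraries below the other kept cells, at 233 and 172 CPM. The target Gli1 had only 27 of 1983748 UMIs in control and 7 of 754439 UMIs in Gli2EKO. Gli3 stood at 226 and 195 CPM (−0.21, −0.49 to 0.06). None of the 13 genes was at least 4-fold above the other kept cells in both libraries.

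Thinned to 5000 UMIs, Mki67 was found in 53.0% (44.2 to 61.8) of control and 46.4% (33.0 to 60.3) of Gli2EKO shaft cells. These shares were close to the 49.5% and 39.1% of the background cells and did not set shaft cells apart from them. In inner root sheath cells the shares were 82.0% (78.3 to 85.3) and 63.1% (55.5 to 70.2). In matrix cells they were 82.9% (75.1 to 89.1) and 84.1% (69.9 to 93.4). The Foxq1 group described below lay lower, at 45.7% and 29.6%. The list of 28 genes of the G2 and M phases had a median log2 ratio of −0.25 and the list of 25 genes of the S phase one of 0.30, with 0 and 1 genes past 2-fold. Over 14 alternatives these medians ran from −0.71 to −0.13 and from 0.035 to 0.34. Mki67 stood at 514 and 322 CPM (log2 ratio −0.67, −0.88 to −0.47), but it was also lower in the other kept cells of the Gli2EKO library, at 466 in control and 280.4 in Gli2EKO. Its log2 ratio in shaft cells ran from −1.58 to −0.57 over 12 alternatives, the lowest with inner root sheath keratins below 20% of Krt35. Among 13 counted genes of thiol and cystine handling, 0 were past 2-fold either way. Over all 9520 genes, 2.61% were past it higher and 3.35% lower.

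Cells were split by their Krt35 level into 5 to under 20, 20 to under 80, and 80 or more per 10000, which gave 69, 65 and 11 control cells and 34, 30 and 8 Gli2EKO cells. Over these ranges Krt85 went from 649 to 1580.8 to 3158 CPM in control and from 695 to 1683.3 to 4717.9 CPM in Gli2EKO. Selenbp1 went from 123 to 477 to 1187.7 CPM in control and from 42.0 to 122 to 340.0 CPM in Gli2EKO, and so was lower in Gli2EKO in all 3 ranges. Hoxc13 went from 308 to 440.1 to 563 CPM in control and from 333 to 609 to 659 CPM in Gli2EKO. Mki67 went the opposite way, from 714 to 395 to 75.5 CPM in control and from 510 to 217 to 21.3 CPM in Gli2EKO. Krt14, the keratin of basal cells, went from 1523.7 to 840 to 34.3 CPM in control and from 1969.5 to 309 to 31.9 CPM in Gli2EKO. Lef1 stayed within 1081.9 to 1572.2 CPM in control and 923 to 1296.4 CPM in Gli2EKO. With Krt35 used to define the ranges, the course of Krt85 describes cells of 1 library each and is not independent of the selection.

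**Figure D3:**
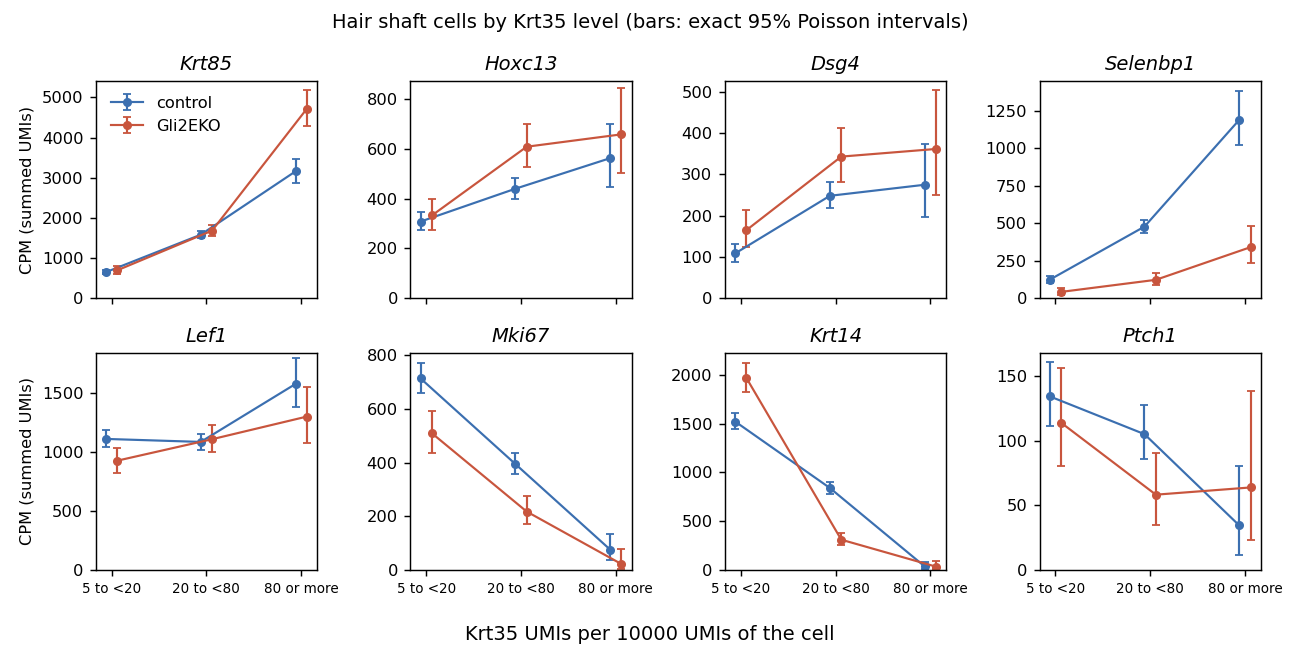
CPM of 8 genes in hair shaft cells of 3 Krt35 ranges in the control and Gli2EKO libraries, with exact Poisson 95% bars for counting error. Krt85, Hoxc13, Dsg4 and Selenbp1 are highest in the range of 80 or more per 10000, Mki67 and Krt14 lowest, and Selenbp1 lies lower in Gli2EKO in each range.

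Hair shaft cells were set beside neighbouring cells of the follicle, namely 750 cells led by inner root sheath keratins, 170 low in both keratin groups with at least 3 UMIs per 10000 of Foxq1, Aldh1a3 and Vat1l together (the Foxq1 group), and 199 with matrix genes such as Shh and Msx1. Over inner root sheath cells, 83 of 9520 genes (0.872%) were at least 4-fold higher in both libraries, over the Foxq1 group 57 (0.599%) and over matrix cells 133 (1.4%). Krt85 stood at 57.4 and 105 CPM in control and Gli2EKO inner root sheath cells, at 108 and 139 CPM in the Foxq1 group and at 47.3 and 22.8 CPM in matrix cells. Lef1 was also high in the Foxq1 group, at 1096.1 and 837 CPM. Mt4 also stood high there, at 446 and 428 CPM, while Selenbp1 stayed between 2.44 and 7.48 CPM in all 3 groups of both libraries. Gli3 was higher in the Foxq1 group, at 1394.6 and 928 CPM, than in shaft cells, and Notch1 was lower there, at 62.3 and 34.8 CPM. Krtap8-1 was found in the Foxq1 group too, at 247 and 211 CPM. Thinned to 5000 UMIs, S100a3 was found in 48.6% and 37.0% of that group, against 42.4% and 32.1% of shaft cells. Hoxc13 was found in 55.2% and 40.7% of that group and in 34.1% of matrix cells in both libraries. In shaft cells the Hoxc13 shares were 80.3% and 85.7%.

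**Figure D4:**
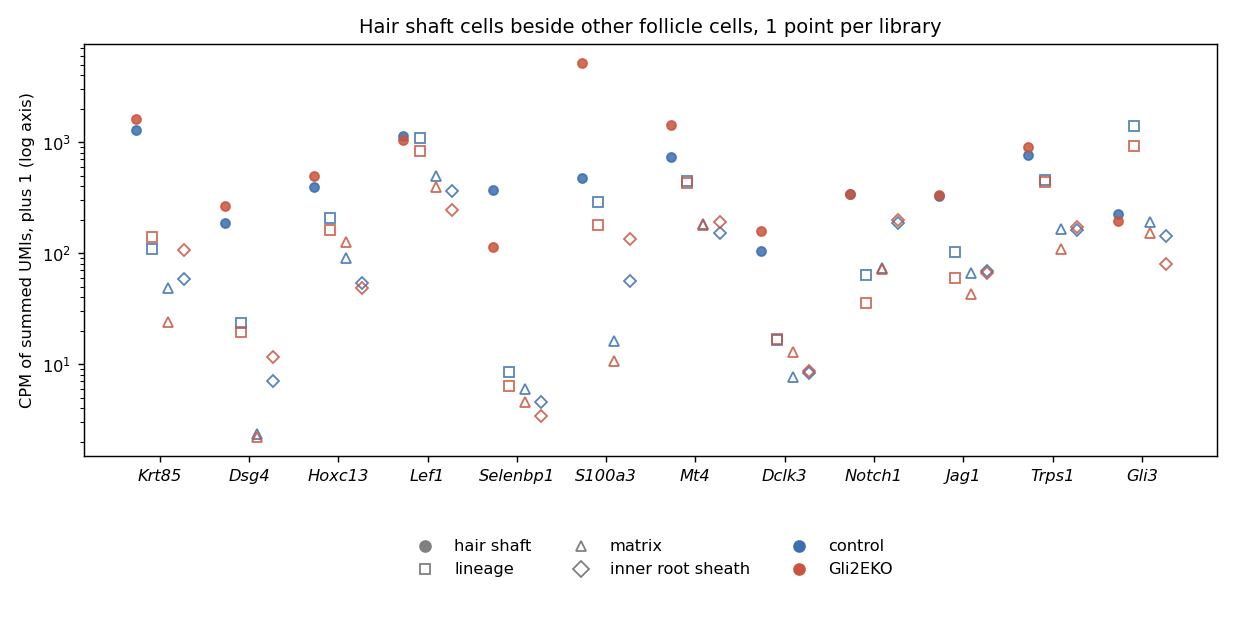
CPM plus 1 on a log axis of 12 genes in hair shaft, inner root sheath, Foxq1-group and matrix cells, with 1 point per library. Krt85, Dsg4 and Selenbp1 lie highest in hair shaft cells, while Lef1 and Mt4 are also high in the Foxq1 group and Gli3 is highest there.

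Genes of other cell types were unevenly spread over the selected cells. Melanocyte, fibroblast, mural, immune or endothelial, or suprabasal markers summed to at least 10 per 10000 in 19 control cells and 3 Gli2EKO cells, and 13 and 0 of these also had a Scrublet doublet score in the highest 8% of their library. The basal and outer root sheath keratins Krt5, Krt14 and Krt15 together were past the same limit in 32 control and 17 Gli2EKO cells, 19 and 2 of them with such a score. All 7 counted melanocyte genes were at least 2-fold lower in Gli2EKO, with summed levels of 329 CPM in control and 34.5 CPM in Gli2EKO and single cells ranging from 0 to 130 per 10000 in control and from 0 to 5.54 in Gli2EKO, where the melanosomal enzyme Tyrp1 had 0 UMIs. Dct, which acts in melanin synthesis, stood at 194 and 13.3 CPM and 225 of its 384 control UMIs came from 1 cell. The 2 counted mural genes, Tagln and Acta2, stood at 60.0 and 56.0 CPM in control and at 3.98 CPM each in Gli2EKO. Without the 19 and 3 cells the ratio of shares was 0.787, and without the highest 8% of doublet scores, which removed 24 control and 2 Gli2EKO shaft cells, it was 0.828. The log2 ratio of Selenbp1 was −1.71 and −1.72 under these settings. Hs6st1, a heparan sulphate sulphotransferase, had a low ratio without resting on 1 cell, with 61 UMIs in 47 control cells and 6 UMIs in 6 Gli2EKO cells (log2 ratio −1.85, −3.45 to −0.75), against 38.2 and 33.8 CPM in the other kept cells.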

How the data were processed

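Per the labels, dorsal epidermis of 2-day-old control and Gli2EKO mice was profiled with 1 10x library each. The authors deposited filtered matrices of UMI counts, raw whole numbers for each gene and barcode, which the submitters' processing notes credit to Cell Ranger 9.0.1 and GRCm39. Each matrix listed 56694 genes. The notes also name Seurat. The study removed doublets, which was not done here. Scrublet scores (scanpy 1.11.5, expected rate 0.06) served only for an alternative that leaves out the highest 8% of cells in each library.

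CPM, shares and ratios were computed from the deposited counts in python 3.11.15 with numpy 2.4.6, scipy 1.17.1 and pandas 2.3.3, and plots were drawn in matplotlib 3.10.9. Intervals at 95% cover only counting error, by the Clopper-Pearson method for shares, the exact Poisson method for CPM and a conditional binomial method for ratios. Log2 ratios had 0.5 UMIs added to each sum, and counts of genes past a fold used genes with at least 20 UMIs. The functions were tested on simulated data. Groups were taken from the genotype labels.

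The selected cells, the gene lists and the comparison groups were chosen with earlier results of these data known. Named genes were members of those lists, the 15 highest and 15 lowest log2 ratios among genes with at least 50 UMIs and 3 in each library, and the 25 genes with the largest ratio to other kept cells. Genome positions and promoters came from the GRCm39 reference annotation, matched by identifier. Alternatives changed the Krt35 limit, the condition on inner root sheath keratins, the mitochondrial limit, doublets, the denominator, the UMI minimum, the pseudocount, the weighting of Krt35 ranges and the depth of thinning. No donor-level replicate was available, so no p-value is given.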

Additional observations from a re-analysis of the deposited data

How the results depend on the processing

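Medians near 0 changed sign under some alternatives, as for shaft transcription factors (0.08, lowest −0.15), Hedgehog genes (−0.03, highest 0.08) and thiol and cystine handling (−0.13, highest 0.07), and so did the single gene Lef1 (−0.11, highest 0.03). Of 210 list medians recomputed under alternatives, 202 moved by less than their tolerance and 8 by more, and of 216 values of single genes 172 and 44. The tolerance differed between lists and was wide for some, so the count of 202 does not show that the medians were stable. With Krt35 at least 2 per 10000, the median of keratin-associated proteins went from 2.05 to 3.6 and that of hair keratins from 1.26 to 2.84. Both stayed within their tolerance, while the S phase median, from 0.30 to 0.035, did not. The share of hair shaft cells was 4.13% in control with Krt35 at least 2 per 10000, 2.29% and 1.58% (control and Gli2EKO) with at least 10, 2.06% and 1.31% with inner root sheath keratins below 20% of Krt35, 2.53% and 1.63% with under 5% mitochondrial UMIs, and 4.29% and 3.02% of epithelial cells only. Genes at least 2-fold higher and lower in Gli2EKO, 248 and 319, became 34 and 37 with at least 100 UMIs and 2651 and 1526 with no minimum, where higher genes outnumber lower ones. The 0.5 UMIs added weigh more in the smaller Gli2EKO sum (754439 UMIs, against 1983748 in control). A gene with 1 UMI in Gli2EKO only therefore counts as higher, while a gene with 1 UMI in control only does not count as lower. The count of lower genes was 194 without the highest Scrublet scores, 192 with 2 UMIs added and 550 with the highest cell of each gene left out. Genes 4-fold above other cells, 122, became 66 with at least 100 UMIs. The median log2 ratio of the S phase list, 0.30, was 0.035 with Krt35 at least 2, 0.14 with no condition on inner root sheath keratins, 0.078 with these below 20% of Krt35 and 0.14 as a mean of single-cell CPM. That of the G2 and M list, −0.25, was −0.43 and −0.71 under the middle 2 of these settings. The Wnt list, 0.19, was 0.015 without the highest Scrublet scores, and other epidermal keratins, 0.11, were −0.53 with the highest cells left out. Beyond this effect of the added UMIs, the cause of these shifts was not tested. Leaving out the Gli2EKO cell with the most S100a3, cells with markers of other cell types or the highest cell of each gene, and averaging single-cell CPM, were chosen after seeing the data. No paired analysis was possible because each genotype has 1 library and the labels carry no replicate numbers. Genes under 20 UMIs and changes smaller than the counting intervals were not resolvable at this depth.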

Other observations

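Gm47283 stood at 108 CPM in control and 7.95 CPM in Gli2EKO hair shaft cells, with 214 and 6 UMIs, and at 83.4 and 13.4 CPM in the other kept cells of the libraries, so its difference was not limited to the shaft cells. Among the 25 genes with the largest ratio to other kept cells were several outside the hair keratin and cuticle lists. Hes2, a member of the Hairy/Enhancer of split family, stood at 17.6 CPM in control and 21.2 CPM in Gli2EKO shaft cells, against 0.229 and 0.109 CPM elsewhere, and Serpinb13, a serpin of keratinocytes, at 29.7 and 17.2 CPM, against 0.566 and 0.261 CPM. Dclk3, a doublecortin-like kinase, stood at 103 and 159 CPM, against 3.29 and 2.20 CPM elsewhere, and its log2 ratio between libraries was 0.62 (0.28 to 0.95). Gpnmb, a melanosomal glycoprotein, was at 283 CPM in control and 567 CPM in Gli2EKO shaft cells (log2 ratio 1.00, 0.82 to 1.19), and Aldh1a3, an enzyme of retinoic acid synthesis, at 229 and 143 CPM (−0.67, −0.99 to −0.37). Both were higher in the cells with Foxq1, Aldh1a3 and Vat1l than in the shaft cells of the same library, at 1013.2 and 781 CPM for Gpnmb and 732 and 372 CPM for Aldh1a3, the latter being used to choose those cells. Of the promoters of the 122 genes at least 4-fold above other kept cells, 111 could be read. Of these, 21.6% held a Hoxc13 word, 21.6% a Lef1 word and 22.5% TATAAA. Over all 21757 protein-coding promoters the shares were 18.2%, 16.2% and 12.5%, and the differences were not tested.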
